A study of Saccharomyces cerevisiae and Saccharomyces cerevisiae S288C with 30 samples.

Results

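HAC1 (YFL031W) encodes the transcription factor of the unfolded protein response, the programme by which yeast answers misfolded protein in the endoplasmic reticulum. It was described here through its single intron. The members were chosen by gene: every event of HAC1 in the deposited table of percent spliced in (PSI) values was taken. That gave 1 of 405 events, an annotated intron with a value in all 26 RNA-seq libraries. The table does not name genes, and the event was placed on HAC1 by position and strand.

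The HAC1 intron differs from the other annotated introns of yeast in how it is removed. In unstressed cells the mRNA is exported with the intron in place, and pairing between the intron and the 5′ untranslated region keeps it from being translated. When unfolded protein builds up, the endoribonuclease Ire1, a transmembrane sensor of the endoplasmic reticulum, cuts both ends of the intron in the cytoplasm, and the tRNA ligase Trl1 joins the exons. No spliceosome, branch point or lariat takes part. The product then activates chaperone, secretion and lipid genes. In diploid cells HAC1 has also been tied to nitrogen supply and to the repression of early meiotic genes.

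The intron lies on chromosome VI at 75840 to 76091 on sacCer3, on the plus strand, and is 252 bases long. It sits within the coding sequence, near its 3′ end. In the RefSeq R64 annotation the gene runs from 75179 to 76147, with 661 bases before the intron and 56 after it. Without the intron 717 bases remain, which is 239 codons with the stop. Of the 279 annotated introns in the table, 160 were shorter than the HAC1 intron and 118 were longer, with a median of 143 bases.

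The study measured introns of Saccharomyces cerevisiae in 13 RNA-seq groups of 2 libraries each, beside Branch-seq (3 gel fractions) and Lariat-seq (1 library). TruSeq libraries, whose columns are marked as poly(A), came from dbr1_null, upf1_null and WT cells of the S288c background, grown in YPD and collected in log phase. Dbr1 is the enzyme that opens intron lariats, and Upf1 is a helicase of nonsense-mediated mRNA decay. Ribo-Zero libraries, made from total RNA after rRNA removal, came from S288c cells labelled dbr1, +rap and -rap, and from SK1 cells labelled sk1 or taken after 0, 3, 6, 7.5, 8.5 and 12 h in sporulation medium. SK1 is a laboratory strain that sporulates efficiently. The labels call each pair biological replicates or number it, and do not further describe the dbr1 allele, +rap and -rap, or of the medium in which the Ribo-Zero cultures were grown before sampling. They also give no agent that perturbs the endoplasmic reticulum in any group.

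PSI is a fraction from 0 to 1 given to 2 decimals. The sources used here do not define it. ACT1, an actin gene on the same chromosome whose intron is removed efficiently by the spliceosome, had a PSI of 0.02 to 0.11 outside the Ribo-Zero dbr1 libraries, so a high PSI is read below as retention of the intron. No read numbers accompany PSI, so depth at HAC1 is unknown and no counting interval is given. Between 384 and 394 events had a value in each TruSeq library, and between 231 and 374 in each Ribo-Zero library, with the fewest at 8.5 h. PSI is a ratio within the gene and says nothing of how much HAC1 mRNA there was.

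The HAC1 intron was almost fully retained in most libraries. Its PSI was 1 in 13 of the 26 libraries and at least 0.95 in 21. The median over libraries was 0.995, and the lowest value was 0.62. The other annotated introns had medians of 0.19 to 0.91 per library, with the highest values in the Ribo-Zero dbr1 libraries. The 5 libraries under 0.95 were all from SK1 cells: 0.89 and 0.62 at 0 h, 0.84 and 0.91 at 3 h, and 0.84 in sk1 replicate 2. Every S288c library, in both preparations, was at 0.99 or 1.

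**Figure D1:**
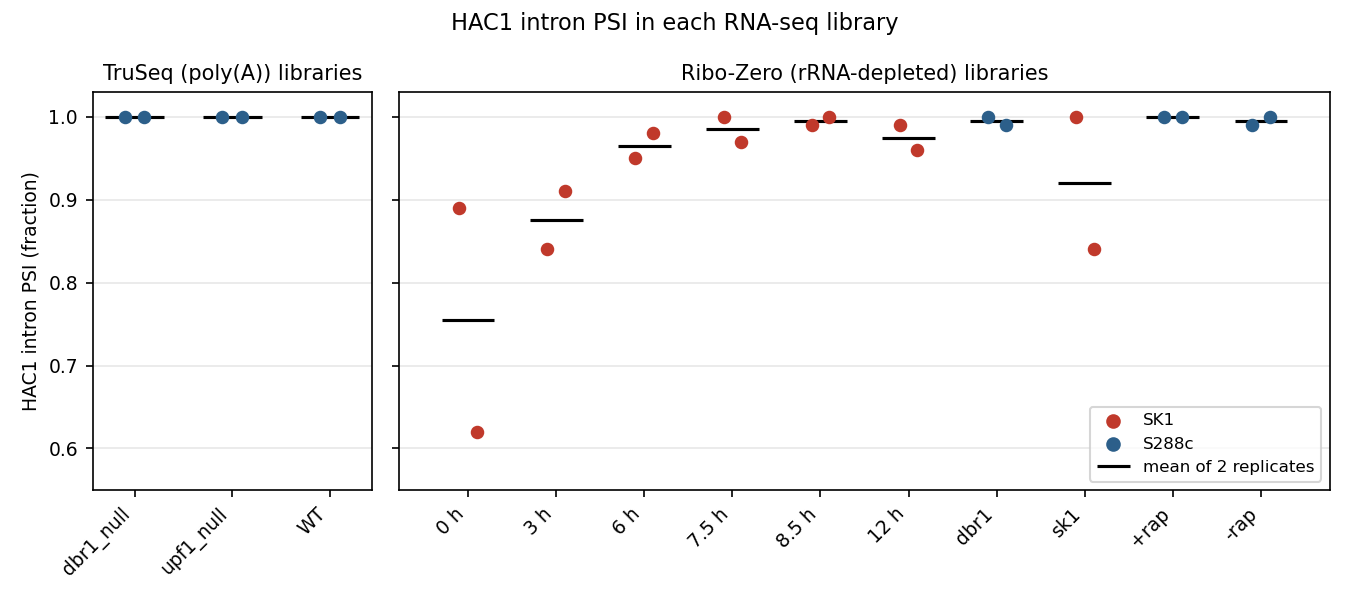
PSI of the HAC1 intron (fraction, y axis) in each of 26 libraries, by group; points are libraries, black bars the mean of 2 replicates, red SK1 and blue S288c. All S288c libraries sit at 0.99 or 1, and the lowest points are the 2 SK1 libraries at 0 h (0.89 and 0.62), the 2 at 3 h (0.84 and 0.91) and sk1 replicate 2 (0.84).

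In order of the group means, HAC1 PSI was lowest at 0 h (0.755 ± 0.191, mean and SD, n = 2 libraries here and below), followed by 3 h (0.875 ± 0.0495), sk1 (0.92 ± 0.113), 6 h (0.965 ± 0.0212), 12 h (0.975 ± 0.0212) and 7.5 h (0.985 ± 0.0212). The Ribo-Zero dbr1, -rap and 8.5 h groups stood at 0.995 ± 0.00707 each, and dbr1_null, upf1_null, WT and +rap at 1 ± 0. No group differed from its neighbour in this order by more than the larger SD of the pair.

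In the TruSeq libraries HAC1 did not move at the precision of the table. It stood at 1 in both dbr1_null replicates, in both upf1_null replicates and in both WT replicates. The difference was 0 log2 odds in either mutant against WT, where log2 odds is log2((PSI + 0.01)/(1 − PSI + 0.01)), the scale on which all tests were run (limma adjusted p = 1 for each). Identical replicates make the fitted SE of 0.0222 (dbr1_null) and 0.0227 (upf1_null) smaller than the rounding. A value printed as 1 can be as low as 0.995, which is a span of 0.59 log2 odds. Any retention gained in a mutant could not have been seen, since HAC1 was at the ceiling in WT.

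Other introns did change in these mutants. In dbr1_null 2.39% of 377 events rose and 0.265% fell against WT, and in upf1_null 11.8% of 382 rose and 1.05% fell. Among the other annotated introns whose WT mean was 0.95 or above, as HAC1's was, 0 of 19 rose in dbr1_null (limma, with 1 called lower and 2 at an unadjusted p under 0.05) and 1 of 19 in upf1_null. Under that level 9 of 236 rose in dbr1_null and 37 of 240 in upf1_null. HAC1 was 1 of only 2 annotated introns, of 256 with all values, that stood at 1 in all 6 TruSeq libraries. The other was in YJR079W. GCR1, the activator of glycolytic genes, and the subtelomeric YBL111C and YHL050C were at 0.99 or above in all 6.

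The widest rise of introns in the series left HAC1 where it was. In Ribo-Zero dbr1 cells, 43.3% of 319 events were higher than in -rap cells and 0.94% were lower. HAC1 had 1 and 0.99 in dbr1, against 0.99 and 1 in -rap, so the pairs of values overlapped fully (difference 0 log2 odds, 95% interval −2.61 to 2.61, limma adjusted p = 1). The SE of 1.20 behind this interval was pooled over all Ribo-Zero libraries, and was 0.64 in a fit of these 2 groups alone. ACT1, in contrast, stood at 0.84 ± 0.198 in dbr1 and 0.045 ± 0.00707 in -rap (7.26 log2 odds, SE 0.82, limma adjusted p = 3.75e-06), a call lost when only these 2 groups entered the fit (adjusted p = 0.0749). Of the 16 other annotated introns with a -rap mean of 0.95 or above, 3 rose in dbr1, and of the 188 below that level 116 rose. HAC1 belongs to the first set, where little room for a rise was left, and whether its intron would have moved from a lower level was not tested. Excised introns that persist as lariats and introns of unspliced mRNA cannot be told apart in PSI. The comparisons of dbr1, sk1 and +rap share the S288c -rap libraries.

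HAC1 was also at the ceiling in the +rap comparison. It had 1 and 1 in +rap, against 0.99 and 1 in -rap (0.51 log2 odds, SE 1.20, 95% interval −2.11 to 3.12, limma adjusted p = 0.882), while 18% of 306 events rose and 3.27% fell. A single step of 0.01 at the top of the scale is 1.01 log2 odds, and the whole difference rests on 1 such step in 1 library. Of the 16 other annotated introns with a -rap mean of 0.95 or above, 0 passed in limma and 0 were under 0.05 before adjustment. The share over all events was itself unstable: in a fit of the +rap and -rap groups alone 8 of 306 events rose and 3 fell. Far fewer also passed without +rap replicate 2 or without either -rap replicate.

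In SK1 cells the HAC1 intron was not always at the ceiling. The sk1 replicates had 1 and 0.84, against 0.99 and 1 in S288c -rap cells, so that 1 sk1 library lay below both -rap libraries and the other did not. The difference, −1.66 log2 odds (SE 1.20, 95% interval −4.28 to 0.96), did not pass limma's test (adjusted p = 0.716), and 0.68% of 294 events were higher and 1.36% lower in sk1. It was 0.51 without sk1 replicate 2. The gap of 0.16 between the sk1 replicates was large for this group: 13 of 201 other annotated introns, 6.47%, had one as large, and the median gap was 0.02.

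The lowest retention was at the start of sporulation. At 0 h in sporulation medium HAC1 had 0.89 and 0.62, against 1 and 0.84 in sk1. Read as the share of transcripts without the intron, 1 − PSI was 24.5% ± 19.1 at 0 h and 8% ± 11.3 in sk1 (SD, n = 2 each). Both 0 h libraries were below sk1 replicate 1, and replicate 1 at 0 h was above sk1 replicate 2, so the groups overlapped. The difference was −2.69 log2 odds (SE 1.21, 95% interval −5.32 to −0.06) with an unadjusted p of 0.0454 and a limma adjusted p of 0.106. It did not pass, against 8.53% of 293 events called lower and 28.3% called higher. Without sk1 replicate 2 the adjusted p was 0.0159, within a range of 0.0159 to 0.826 over all alternatives.

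HAC1 was lower at 0 h than in sk1 without passing, whereas most annotated introns were higher. The median of all annotated introns was 0.82 log2 odds higher at 0 h than in sk1, and 77 of 188 passed as higher and 11 as lower. Of the 8 other annotated introns with an sk1 mean of 0.95 or above, 0 rose and 0 fell (median 0.02). Of the 179 below that level 77 rose and 11 fell. HAC1, at 0.92 in sk1, was below it, but only 12 of 201 other annotated introns were at or above HAC1. The part of starting level was not tested. Only 1 other annotated intron, that of MRA1, had as low a difference in log2 odds as HAC1. Over all 293 events, unannotated ones included, 5 had as low a difference, with HAC1 counted. ACT1 was at 0.075 ± 0.0212 at 0 h and 0.05 ± 0 in sk1, without passing (adjusted p = 0.696). Replicate 2 at 0 h, which held the lowest HAC1 value of the series, had a higher median of other annotated introns than replicate 1 (0.315 and 0.25) and a higher ACT1 PSI (0.09 and 0.06). The HAC1 gap of 0.27 between the 0 h replicates was matched by 7 of 196 other annotated introns, 3.57%, and the median gap was 0.05.

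Over the time course HAC1 PSI had its lowest mean at 0 h and was at least 0.95 in every library from 6 h on. PSI was 0.89 and 0.62 at 0 h, 0.84 and 0.91 at 3 h, 0.95 and 0.98 at 6 h, 1 and 0.97 at 7.5 h, 0.99 and 1 at 8.5 h, and 0.99 and 0.96 at 12 h. The libraries at 0 h and 3 h overlapped, and from 6 h on every library lay above all 4 of the earlier ones. The mean of 1 − PSI was 24.5% at 0 h, 12.5% at 3 h, 3.5% at 6 h, 1.5% at 7.5 h, 0.5% at 8.5 h and 2.5% at 12 h.

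**Figure D2:**
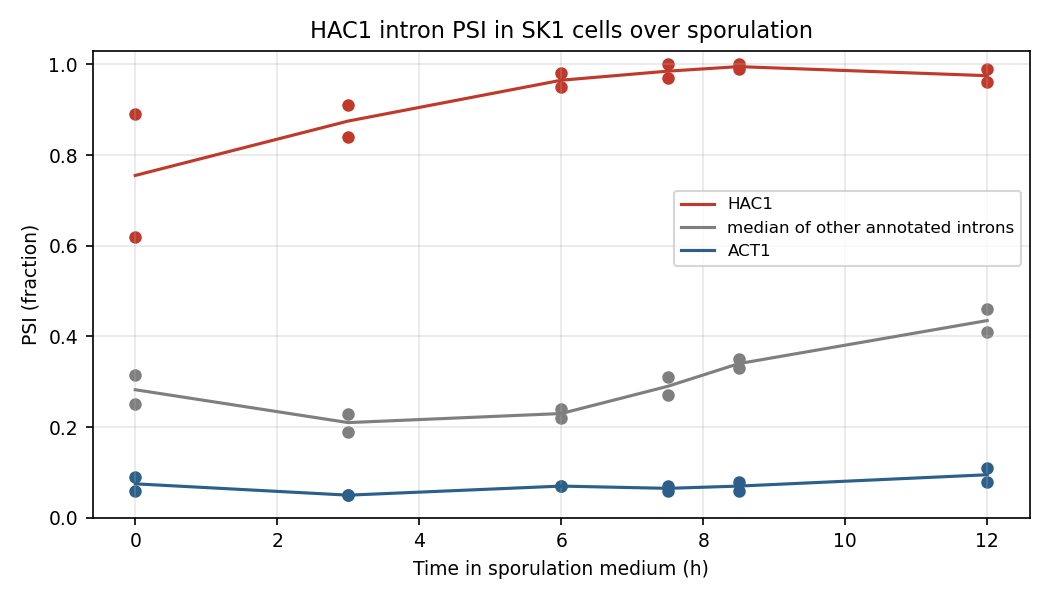
PSI (fraction, y axis) against hours in sporulation medium in SK1 cells; points are libraries and lines join the means of 2. HAC1 (red) had means of 0.755 at 0 h, 0.995 at 8.5 h and 0.975 at 12 h, the median of the other annotated introns (grey) was lowest at 3 h, and ACT1 (blue) stayed at or below 0.11.

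HAC1 passed the test at 7.5 h and at 8.5 h. At 7.5 h it stood at 0.985 ± 0.0212, against 0.755 ± 0.191 at 0 h (3.84 log2 odds, SE 1.22, 95% interval 1.18 to 6.50, limma adjusted p = 0.0294). In that comparison 11.4% of 210 events rose and 20.5% fell. At 8.5 h it stood at 0.995 ± 0.00707, against 0.755 ± 0.191 at 0 h (4.35 log2 odds, SE 1.23, 95% interval 1.67 to 7.03, adjusted p = 0.0138), where 17% of 176 events rose and 23.9% fell. Both libraries of either time were above both 0 h libraries. Both calls rested on single libraries. Without 0 h replicate 2 the adjusted p was 0.231 at 7.5 h and 0.121 at 8.5 h, without 7.5 h replicate 1 it was 0.191, and without 8.5 h replicate 2 it was 0.0843. They were also lost with an offset of 0.001 (0.0881 and 0.0515) and when only the 2 groups compared entered the fit (0.196 and 0.0982).

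The other times did not pass. At 3 h HAC1 was at 0.875 ± 0.0495, against 0.755 ± 0.191 at 0 h (0.96 log2 odds, SE 1.20, adjusted p = 0.624), where 1.39% of 287 events rose and 8.36% fell. Without 0 h replicate 2 that difference was −0.15. At 6 h it was at 0.965 ± 0.0212 (2.72 log2 odds, SE 1.20, unadjusted p = 0.0429, adjusted p = 0.143), where 2.68% of 299 events rose and 7.69% fell. At 12 h it was at 0.975 ± 0.0212 (3.16 log2 odds, SE 1.21, unadjusted p = 0.0224, adjusted p = 0.0696), where 19.1% of 267 events rose and 7.87% fell. The 12 h difference passed with an offset of 0.05 (adjusted p = 0.0355), on untransformed PSI (0.045) and among annotated introns alone (0.0471), within a range of 0.0355 to 0.35 over all alternatives. The F-test over all 6 times gave an adjusted p of 0.0503, beside 56% of 159 events called. All 5 comparisons share the 0 h libraries, so the spread between those 2 enters each of them.

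From 6 h on HAC1 ranked among the largest rises of annotated introns in log2 odds. The median annotated intron was lower at 3 h, 6 h and 7.5 h than at 0 h, by 0.76, 0.58 and 0.36 log2 odds, and was higher at 8.5 h and 12 h, by 0.11 and 0.51. At 6 h no other of the 188 annotated introns tested rose by as much as HAC1 in log2 odds. At 7.5 h 1 other of 119 did, at 8.5 h 1 other of 89, and at 12 h 4 others of 170. Over all events tested, with HAC1 and unannotated introns counted, 3 of 299 rose by as much at 6 h and 6 of 210 at 7.5 h. The counts were 4 of 176 at 8.5 h and 7 of 267 at 12 h. These ranks are descriptions on a scale that stretches differences near PSI 1, and they do not all hold in PSI itself. At 6 h the annotated intron of BET1 rose by 0.225 in PSI and that of HAC1 by 0.21.

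**Figure D3:**
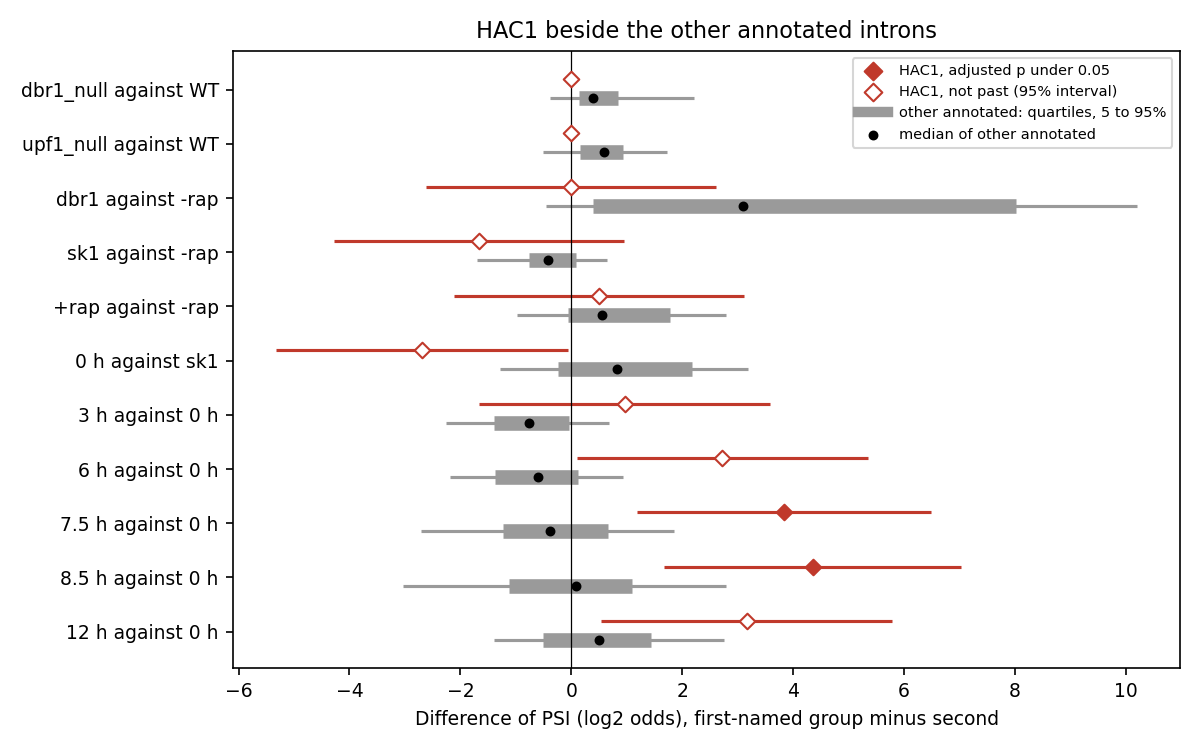
Difference of PSI in log2 odds (x axis), first-named group minus second, for 11 comparisons; red diamonds are HAC1 with its 95% interval, filled where the adjusted p is under 0.05, and grey bars give the quartiles and the 5 to 95% span of the other annotated introns, with the median in black. HAC1 lies left of the grey span at 0 h against sk1 and right of it at 3 h and at each later time against 0 h, and the filled points are 7.5 h and 8.5 h.

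Genes known to act on HAC1 mRNA or downstream of it could not be compared, because none has an intron in the table. Of 21 such genes, among them IRE1, TRL1, the 2′-phosphotransferase gene TPT1 and the chaperone genes KAR2 and LHS1, none had a PSI event. A list named for the early secretory pathway, which carries cargo out of the endoplasmic reticulum, was described in their place. It holds 16 genes with 18 events, 17 of them annotated introns removed by the spliceosome. Not all of its genes carry cargo: SEC14, SCS22 and GPI15 have the other roles given below.

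The 17 annotated secretory introns had lower median PSI than HAC1. Their mean PSI over libraries ran between 0.101 for SEC14, a phospholipid transfer protein gene, and 0.677 for SCS22, whose product tethers the endoplasmic reticulum to the plasma membrane. SEC14 had a lowest value of 0.03, a median of 0.12 and a highest of 0.2 over 18 libraries. SCS22 had a lowest value of 0.38, a median of 0.675 and a highest of 0.97 over 20 libraries. The 1 other event of the list, an alternative 5′ splice site in GPI15, a gene of GPI anchor synthesis, had a mean of 0.970 and ran between 0.9 and 0.99 over 23 libraries.

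**Figure D4:**
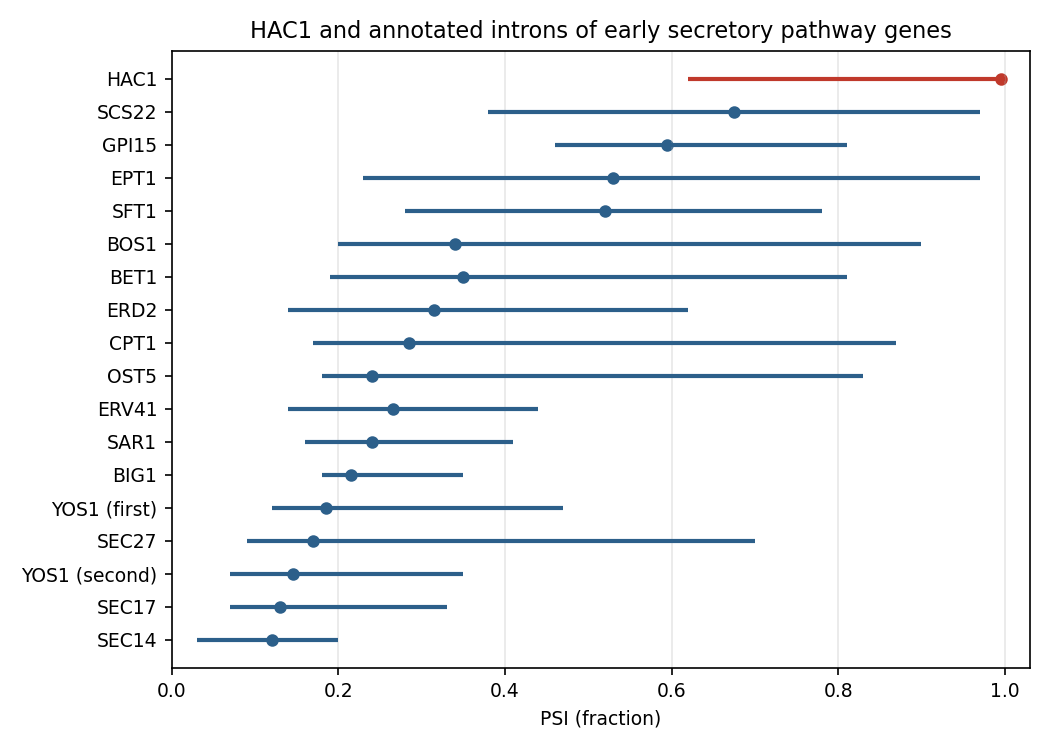
PSI (fraction, x axis) of HAC1 (red, top) and 17 annotated introns of genes on the early secretory pathway list (blue), as the lowest, median and highest library. The HAC1 median of 0.995 lies above every other median, the next being SCS22 at 0.675.

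At 12 h 4 of the 9 secretory events tested rose and none fell against 0 h (median difference 1.39 log2 odds), beside 19.1% higher and 7.87% lower and a median of 0.26 over all 267 events. BET1, a SNARE of vesicles on the way to the Golgi, was at 0.775 ± 0.0495 at 12 h and 0.32 ± 0.0424 at 0 h (limma adjusted p = 0.000138). BOS1, a partner SNARE, was at 0.79 ± 0.156 at 12 h and 0.25 ± 0.0707 at 0 h (adjusted p = 0.00705). SAR1, the small GTPase that starts COPII coat assembly, and SEC17, which helps take SNARE complexes apart, also rose, with means of 0.405 and 0.295 at 12 h and 0.205 and 0.13 at 0 h. BET1 passed in each alternative tried, whereas BOS1 and SAR1 were lost without 0 h replicate 2 (up to 0.126 and 0.121 over alternatives) and SEC17 without either 0 h replicate or 12 h replicate 1 (up to 0.0977). These 3 were also lost in a fit of the 0 h and 12 h libraries alone.

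At the times when HAC1 passed, few secretory events could be tested: 2 at 7.5 h and 1 at 8.5 h, with 0 past limma's test and 0 under 0.05 before adjustment, beside 11.4% higher and 20.5% lower over all events at 7.5 h and 17% and 23.9% at 8.5 h. At 6 h 1 of 12 rose, BET1 (0.545 ± 0.00707 at 6 h and 0.32 ± 0.0424 at 0 h, adjusted p = 0.0164, up to 0.0925 without 6 h replicate 1, 6 h replicate 2 or 0 h replicate 1 or in a fit of these groups alone), with a median difference of 0.47, beside 2.68% higher, 7.69% lower and a median of −0.30 over all 299 events. At 3 h none of 10 passed in limma (1 at an unadjusted p under 0.05), beside 1.39% higher and 8.36% lower over all events. At 0 h against sk1 none of 11 passed (1 at an unadjusted p under 0.05), beside 28.3% higher and 8.53% lower. In sk1 against -rap none of 10 passed (1 at an unadjusted p under 0.05), beside 0.68% higher and 1.36% lower.

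The same list was compared in the S288c groups. In upf1_null 3 of 17 rose against WT, beside 11.8% of all events higher and 1.05% lower: BET1 (0.325 ± 0.0354 and 0.2 ± 0.0141), the HDEL receptor gene ERD2 (0.265 ± 0.00707 and 0.15 ± 0.0141) and SCS22 (0.97 ± 0 and 0.85 ± 0.0424), each lost without any 1 of the 4 libraries (limma adjusted p up to 0.218). In dbr1_null none of 17 passed (3 at an unadjusted p under 0.05), beside 2.39% higher and 0.265% lower, and in +rap none of 12 (0 under 0.05 before adjustment), beside 18% higher and 3.27% lower. In Ribo-Zero dbr1, where 43.3% of all events were higher and 0.94% lower, 1 of 14 rose, the COPI coat gene SEC27 (0.455 ± 0.0919 in dbr1 and 0.15 ± 0.0141 in -rap, adjusted p = 0.000705), and 1 fell, BET1 (0.26 ± 0.0283 in dbr1 and 0.385 ± 0.0212 in -rap, adjusted p = 0.0363, lost without dbr1 replicate 2 or either -rap replicate). The list's medians in these 4 comparisons were 0.57, 0.37, −0.38 and 0.39 log2 odds, beside 0.48, 0.29, 0.30 and 0.73 over all events. HAC1 stood at 0, 0, 0.51 and 0 in the same comparisons.

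The introns most like HAC1 over libraries were 2 unannotated introns and 3 annotated introns of subtelomeric genes. Likeness was measured as Pearson's r of log2 odds over the 26 libraries, among 318 events with at least 20 shared libraries, for which the median r was 0.10. The highest r, 0.813 (Spearman's rho 0.79), was that of an unannotated intron in SBA1, an Hsp90 co-chaperone gene (chromosome XI, 220778 to 220831). Next came annotated introns of the subtelomeric genes YBL111C (r = 0.783, rho = 0.818) and YHR218W (r = 0.768, rho = 0.804), an unannotated intron in IDP3, which encodes the peroxisomal isocitrate dehydrogenase (r = 0.736, rho = 0.753), and the subtelomeric YLL066C (r = 0.735, rho = 0.709). The points share libraries and strain: the S288c libraries are near the ceiling for all of these. Over the 14 SK1 libraries alone r was 0.714, 0.692, 0.654, 0.55 and 0.554 in the same order.

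**Figure D5:**
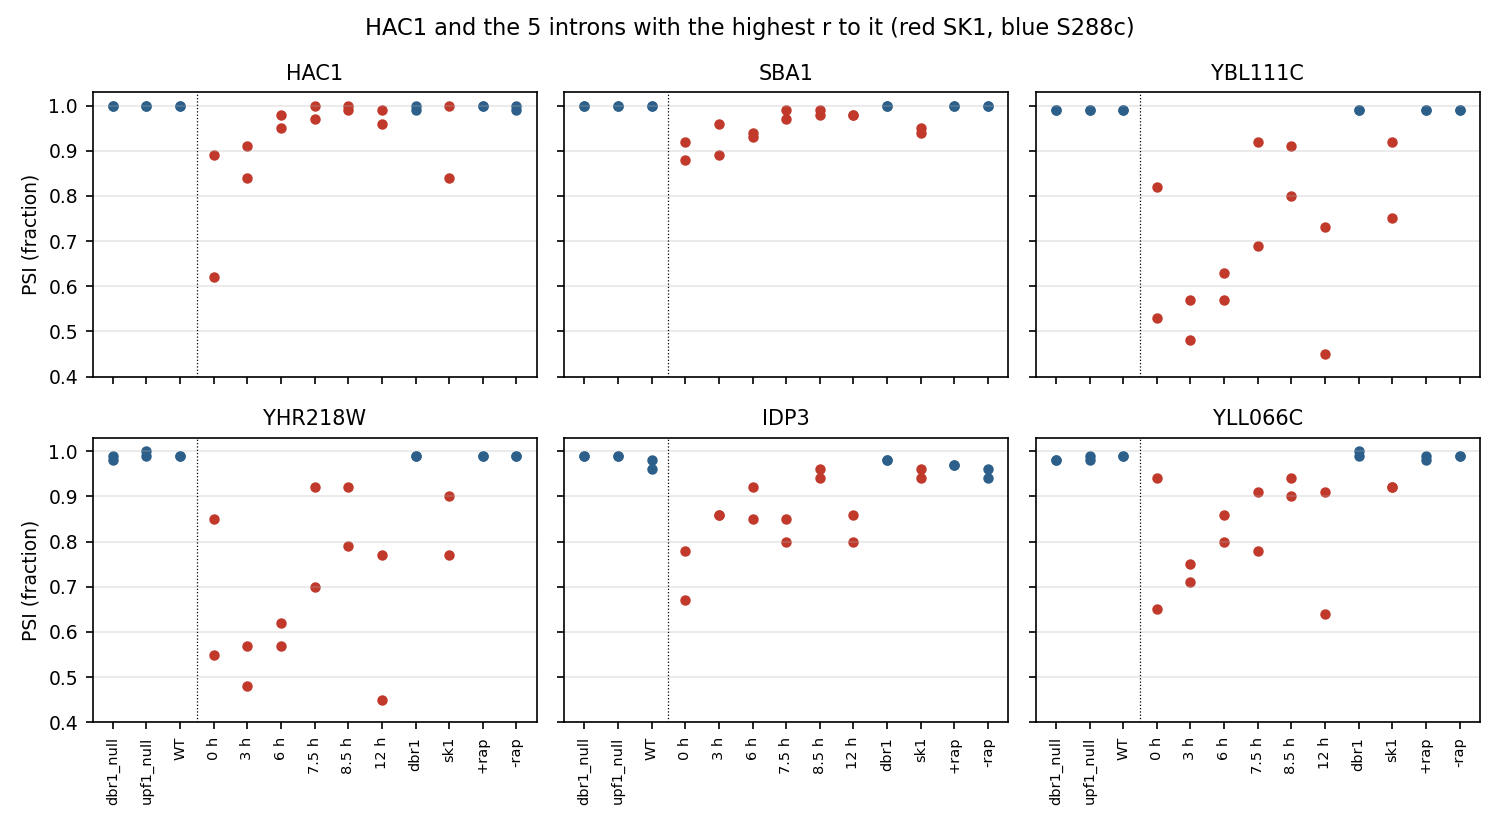
PSI (fraction, y axis) in each library of HAC1 and of the 5 introns with the highest r to it, by group; red is SK1, blue S288c, and the dotted line parts TruSeq from Ribo-Zero. In all 6 panels the S288c libraries lie near 1 and the SK1 libraries at 0 h lie lower, with HAC1 at 0.89 and 0.62.

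These introns were picked by their likeness to HAC1 in the same libraries, so their values are given as a description without tests. The SBA1 intron had 0.92 and 0.88 at 0 h, and its mean absolute PSI difference from HAC1, 0.0277, was the smallest of the 318 (median 0.425). It stood at 0.945 ± 0.00707 in sk1, and in sporulation medium at 0.9 ± 0.0283 at 0 h, 0.925 ± 0.0495 at 3 h, 0.935 ± 0.00707 at 6 h, 0.98 ± 0.0141 at 7.5 h, 0.985 ± 0.00707 at 8.5 h and 0.98 ± 0 at 12 h. Every S288c group had a mean of 1 for it. The IDP3 intron had 0.78 and 0.67 at 0 h, against 0.96 and 0.94 in sk1. Over the times it had means of 0.725 at 0 h, 0.86 at 3 h, 0.885 at 6 h, 0.825 at 7.5 h, 0.95 at 8.5 h and 0.83 at 12 h, so that it was lower at 12 h than at 8.5 h by more than the SD of either (0.0424 and 0.0141).

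The 3 subtelomeric introns were also low in 0 h replicate 2, with 0.53 in YBL111C, 0.55 in YHR218W and 0.65 in YLL066C. Replicate 1 had 0.82, 0.85 and 0.94. In the same order, means (SD up to 0.226) were 0.675, 0.7 and 0.795 at 0 h and 0.525, 0.525 and 0.73 at 3 h. They were 0.6, 0.595 and 0.83 at 6 h, and 0.805, 0.81 and 0.845 at 7.5 h. Means were 0.855, 0.855 and 0.92 at 8.5 h, and 0.59, 0.61 and 0.775 at 12 h. Their lowest library was 12 h replicate 2 (0.45, 0.45 and 0.64), where HAC1 had 0.96. These genes lie in near-identical Y′ elements, so reads may be shared among the copies and their values are uncertain. Next to SBA1, the events closest to HAC1 in level were unannotated introns on chromosome IV (601032 to 601139, mean absolute difference 0.0373), in TIF34, a translation initiation factor gene (0.0381), and on chromosome XIV (282625 to 282684, 0.0385), and the annotated intron of the subtelomeric YIL177C (0.0385).

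HAC1 was not found in either lariat assay, by gene name in Branch-seq and by position in Lariat-seq. None of the 466 Branch-seq branch points was named for HAC1, and none of the 58 Lariat-seq sites, which hold 3541 junction reads, lay in the gene or within 1 kb of it. Branch-seq gives the branch points of excised lariats after they are opened with Dbr1, and Lariat-seq gives reads across the junction of branch point and 5′ splice site. The 1 Lariat-seq site on chromosome VI, in RPL2A with 44 reads, was 145156 bases from the end of HAC1.

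Absence was not rare among annotated introns. Of 277 annotated introns placed on a gene, 71.1% were in a gene with an annotated Branch-seq site and 80 were not. Lariat-seq branch points fell in 14.3% of the 279 annotated introns. On chromosome VI, 5 of 7 annotated introns had an annotated Branch-seq site: those of MOB2 at 332 CPM (the authors' scaled reads, pooled over the gel fractions), RPL22B at 0.459, LSB3 at 787, RPL2A at 3.00 and MRX20 at 350. The 2 without one were HAC1 and ACT1. By level of retention, 6 of 17 other annotated introns with a WT PSI of 0.95 or above had a Branch-seq site (35.3%), and none a Lariat-seq site, against 180 of 245 below that level (73.5%), with 40 in Lariat-seq. These shares were not tested, and the 17 introns are not the same set as the 19 of the TruSeq comparisons. Both lists hold only detected sites, so no upper limit can be given for HAC1.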

How the data were processed

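The deposited PSI values are fractions with 2 decimals. Per the submitters' processing notes, the authors used TopHat2 2.0.0, Bowtie, Cufflinks 2.2.1 and Cuffdiff for TruSeq and TopHat2 and Bowtie for Ribo-Zero, on sacCer3. How PSI was computed is not given in the sources used here. The deposited Branch-seq values are CPM from Bowtie 1.0.0 and SAMtools 0.1.7a on sacCer2, with fractions pooled in 1 column. The deposited Lariat-seq counts give reads across each junction, from Bowtie 1.0.0 on sacCer3. Branch-seq was matched by gene name only, since its build differs.

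Events were placed on RefSeq R64 genes by position and strand. limma 3.58.1 in R 4.3.3 fitted 1 mean per group over all libraries of a preparation, on log2((PSI + 0.01)/(1 − PSI + 0.01)). Events with both values in both groups were tested, two-sided, with Benjamini-Hochberg adjustment over all of them and a threshold of 0.05. The code was tested on simulated data for upf1_null against WT, at starting levels away from the PSI ceiling at which HAC1 stood. With 2 libraries a group, p-values measure the spread between samples, which was pooled over all groups of a preparation and moderated over events. HAC1's SE in each Ribo-Zero comparison thus includes the replicate gaps of sk1 and 0 h. Against -rap it was 1.20 for dbr1, +rap and sk1. In fits of only the groups compared it was 0.64, 0.45 and 2.00 in that order. Same-numbered replicates did not deviate together in every pair of groups (r −0.0979 to 0.311, over 0.1 in 1 of 3 TruSeq pairs, and −0.383 to 0.427, over 0.1 in 14 of 45 Ribo-Zero pairs), so the replicate number was not a block.

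The member, the lists, the comparisons and the tests were chosen with earlier results of these data known. Named besides HAC1 were ACT1, 2 gene lists and, per measure of likeness, 5 events. Sequences are not reported here, as no genome was used.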

Additional observations from a re-analysis of the deposited data

How the results depend on the processing

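Over 12 HAC1 results 152 alternatives were computed, of which 8 lost a call, 9 gained one and 2 turned the direction. The other 133 stayed on their side of the threshold, but dbr1 against -rap, at 0, has no direction to keep and ran between −0.51 and 0.51 with 1 library left out, +rap against -rap was 0 without -rap replicate 1, and both TruSeq mutants were at 0 throughout. HAC1 at 7.5 h against 0 h was 5.61 log2 odds with an offset of 0.001 and 3.84 in a fit of those groups alone, and at 8.5 h 6.38 and 4.35, all 4 no longer past. Leaving out 1 library gave 2.73 to 4.94 at 7.5 h and 3.24 to 5.46 at 8.5 h. At 12 h the difference passed with an offset of 0.05 (2.205), on PSI itself (0.22) and among annotated introns (3.16). The F-test over all times passed with an offset of 0.05 (largest difference 2.66), among annotated introns, with robust moderation and with the replicate block (4.35 in each, adjusted p = 0.0469 with the block), and without 7.5 h replicate 2 (4.86, adjusted p = 0.0407). The largest difference was 3.24 to 5.46 with 1 library left out. The replicate block changed no other HAC1 call, and it ended the upf1_null calls of BET1, ERD2 and SCS22 (adjusted p = 0.0903, 0.0934 and 0.0817). At 0 h against sk1 leaving out 1 library gave −4.86 to −0.52. Direction turned for sk1 against -rap without sk1 replicate 2 (range −3.83 to 0.51) and for 3 h without 0 h replicate 2 (range −0.15 to 2.07). The cause was not tested.

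Counts of called events moved by over 1.5 times in each comparison: 2 to 26 for dbr1_null (10 as reported, 2 with the replicate block), 11 to 49 for upf1_null (49, and 11 with the block), 52 to 145 for dbr1 (141), 1 to 19 for sk1 (6), 1 to 72 for +rap (65), 40 to 109 for 0 h against sk1 (108), and against 0 h 1 to 81 at 3 h (28), 9 to 36 at 6 h (31), 19 to 69 at 7.5 h (67), 31 to 73 at 8.5 h (72), 32 to 77 at 12 h (72) and 49 to 97 over all times (89). The planned look at the intron's sequence was not run, as no genome was at hand. Depth behind PSI is unknown, and the 2-decimal ceiling limits what HAC1 can show above 0.99.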

Other observations

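Annotated introns that moved as far as HAC1 in log2 odds, in the same direction between SK1 groups, were looked up after their values were seen. They are described without tests. At 0 h MRA1 was at 0.075 ± 0.00707, against 0.46 ± 0.0424 in sk1 (SD, n = 2 here and below). At 3 h, where HAC1 itself differed from 0 h by only 0.96 log2 odds, 7 others differed by more, between 0.97 for the subtelomeric YIL177C and 2.12 for YPR202W. The remaining 5 were APE2, an aminopeptidase gene (0.755 ± 0.12 at 3 h and 0.55 ± 0.0424 at 0 h), YEL076C-A, BUD25, YJL225C and DID4. At 6 h there was no other on this scale. APE2 was at 0.99 ± 0 at 7.5 h and 0.55 ± 0.0424 at 0 h, and RPL34A, a ribosomal protein gene, was at 0.89 ± 0.0424 at 8.5 h and 0.23 ± 0.0141 at 0 h. At 12 h there were 4: YEL076C-A (0.98 ± 0 at 12 h and 0.685 ± 0.0636 at 0 h), HNT1 (0.69 ± 0.0283 and 0.13 ± 0.0283), NCB2 (0.96 ± 0.0141 and 0.675 ± 0.191) and BOS1. Several lie in subtelomeric repeats, where reads may be shared among copies.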
